A study of Homo sapiens with 8 samples.

Results

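The 9 genes described here handle vitamin A or are commonly used as readouts of retinoic acid: CYP26A1, CYP26B1, DHRS3, RDH10, RDH11, ALDH1A2, CRABP2, TGM2 and STRA6. They were taken from a list given by name, and all 9 were found among the 20098 protein-coding genes of chromosomes 1 to 22 and X. HL-60 is an established human leukemia cell line of promyelocytic character, which the labels assign to acute promyelocytic leukemia. The ATRA group was kept in 1 µM all-trans retinoic acid (ATRA) for 4 days, and the control group received the solvent ethanol. H3K4me3, a histone mark of promoters, and H3K27ac, a mark of active promoters and enhancers, were mapped by ChIP-seq in 2 libraries per group and mark, 8 in all. All libraries come from 1 cell line. The labels number the libraries of a group as replicates without saying what separates them, so their spread may be technical.

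Retinol enters some cells through the transporter STRA6 and is oxidized to retinaldehyde by dehydrogenases such as RDH10, whereas DHRS3 and RDH11 run the opposite reaction and return retinaldehyde to retinol. ALDH1A2 makes retinoic acid from retinaldehyde, CRABP2 carries it to its nuclear receptors, and the CYP26 enzymes break it down. The receptors bind DNA as RAR-RXR pairs, classically at direct repeats of a 6-base half-site set 5 or 2 bases apart (DR5 and DR2). CYP26A1 and DHRS3 are known in many cells as feedback genes that ATRA induces, and TGM2, a protein-crosslinking enzyme, is a classic ATRA-induced gene of myeloid cells.

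Each gene was measured by the length under peaks over its body plus 20 kb on each side, and by whether a peak lay within 1 kb of its transcription start site (TSS). A gene was called higher where both ATRA libraries lay above both control libraries, and lower in the reverse case. With 2 libraries against 2, the exact two-sided permutation p cannot go below 0.333, so no difference can pass 0.05. Calls are read against the share of all protein-coding genes called the same way.

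The loci differed in kind. DHRS3 and TGM2 carried long H3K27ac domains in both ATRA libraries where the control libraries had 357 bp at most. RDH10 and RDH11 carried H3K4me3 at the TSS in all 4 libraries with or without ATRA. CYP26A1, CYP26B1 and STRA6 had no peak of either mark within 20 kb in any of the 8 libraries, a state shared by 19.5% of all genes. In bulk chromatin, a mark present in fewer cells and a weaker mark in each cell cannot be told apart.

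The counts set these loci in context. For H3K4me3, 2 of the 9 genes were called higher (DHRS3 and CRABP2) against a background of 30.1% of all genes, and 0 were called lower against 2.46%. For H3K27ac, 4 of the 9 were called higher (DHRS3, RDH11, ALDH1A2 and TGM2) against 33.7%, and 0 were called lower against 2.97%. The median difference in length under peaks between ATRA and control was 513.5 bp for H3K4me3 and 487.5 bp for H3K27ac over the 9 genes, against 335 bp and 606 bp over all genes.

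At the TSS, 3 of the 9 genes had H3K4me3 in all 4 libraries (DHRS3, RDH10 and RDH11), against 50.7% of all genes, and 6 had it in none, against 45.9%. None had it in both ATRA libraries and no control library, or the reverse, states held by 0.269% and 0.0995% of all genes. For H3K27ac, 1 gene had a TSS peak in all 4 libraries (RDH10), against 32.9%, and 5 had none, against 49.1%. A TSS peak in both ATRA libraries and no control library was found at 3 of the 9 genes (DHRS3, RDH11 and TGM2), against 2.57% of all genes. The reverse pattern was found at 0, against 0.269%.

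**Figure D1:**
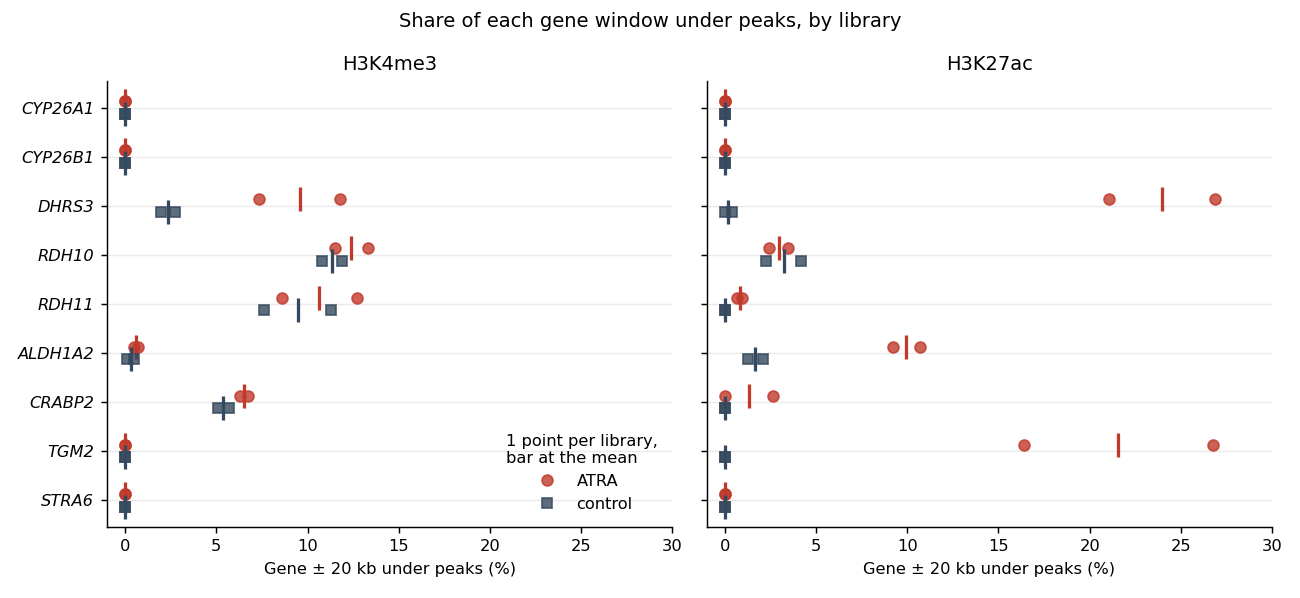
Share of each gene plus 20 kb on each side that lies under H3K4me3 peaks (left) or H3K27ac peaks (right), in percent, with 1 circle per ATRA library, 1 square per control library and a bar at each mean. DHRS3 and TGM2 stand at 16.4% to 26.9% for H3K27ac in the ATRA libraries and at 0.395% or less in the control libraries, while CYP26A1, CYP26B1 and STRA6 lie at 0 throughout.

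The libraries differ in how much of the genome was called. H3K4me3 peaks covered 47.7 to 63.2 Mb per library and H3K27ac peaks 28.8 to 86.1 Mb, and the genome-wide length of H3K27ac was higher with ATRA by a log2 ratio of 0.87 (0.22 for H3K4me3). For both marks each ATRA library exceeded each control library in covered length. With lengths scaled to that total, 1 of the 9 genes (DHRS3) was called higher for H3K4me3 in place of 2. For H3K27ac the same 4 were called higher, and RDH10 was called lower. The share of all genes called was not computed with this scaling, so these counts have no background. The paper reports the other direction, with fewer peaks of both marks in ATRA-treated than in control cells. It counted peaks found in both replicates, a measure unlike covered length. The deposited H3K27ac lists held 28200 and 39332 peaks with ATRA and 15457 and 29616 in the control. The cause of this difference was not tested. How many reads underlie a peak is not known here. Of 12 promyelocyte and granulocyte markers, 7 to 10 had a TSS peak per library, always including MPO, CD33, SPI1, CEBPE and CTSG. ELANE and LYZ had none in any library. Of 13 markers of other cell types, 1 to 2 had an H3K4me3 peak at the TSS per library (GATA1 and LUM) and 2 to 3 an H3K27ac peak (CD3E, GATA1 and LUM among them).

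DHRS3, the retinaldehyde reductase, was called higher for both marks, alone among the 9 genes. H3K4me3 covered 10643 and 6633 bp of its window in the ATRA libraries, and 2492 and 1770 bp in the control libraries. Both ATRA values lie above both control values, with a log2 ratio of 1.62 after adding 1000 bp (exact permutation p = 0.333), which ranks 91 of 20098 genes. The gene lies on the minus strand of chromosome 1 at 12627939 to 12678216 in hg19, with its TSS at the upper end. All 4 libraries had a peak over that TSS, 7355 and 5666 bp long with ATRA and 2492 and 1770 bp long in the control. The upstream edge of the peak lay 1562 and 964 bp before the TSS with ATRA and 952 and 915 bp before it in the control. The edge inside the gene lay 5792 and 4701 bp after the TSS with ATRA, against 1539 and 854 bp. The added H3K4me3 thus lay mostly on the side of the gene body. A second, intronic H3K4me3 peak was present in both ATRA libraries only, 3288 and 967 bp long, and in both it ended 10602 bp after the TSS at the same base.

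H3K27ac at DHRS3 covered 24247 and 19013 bp with ATRA, and 0 and 357 bp in the control (means of 21630 ± 3701 and 178.5 ± 252.4 bp, SD, n = 2). These are 26.9% and 21.1% of the window against 0 and 0.395%. The log2 ratio was 4.26 with 1000 bp added, rank 17 of 20098 genes (exact permutation p = 0.333). The 357 bp in the control lay 8445 to 8801 bp upstream and overlapped no ATRA peak. The bases under peaks in both ATRA libraries formed 7 stretches of 15855 bp in all, none of which met a control peak. The longest, 9620 bp, lay in the gene 12277 to 21896 bp after the TSS. In ATRA replicate 1 it was part of an unbroken domain of 17039 bp, which met no exon of the canonical transcript. At the promoter, ATRA replicate 1 had 1 H3K27ac peak of 4376 bp across the TSS, whereas replicate 2 had a peak on each side and left the bases from 105 bp before to 808 bp after the TSS uncovered. Extending the flanks to 50 kb added 0 bp of either mark in any library, so no other peak lay in them.

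**Figure D2:**
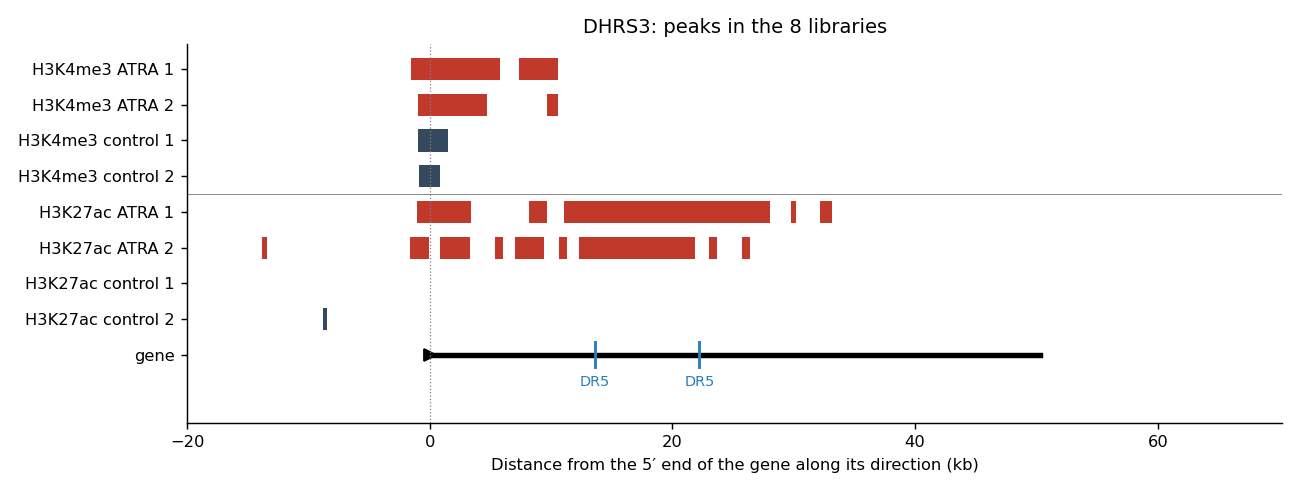
Peaks at DHRS3 in the 8 libraries, plotted by distance from the TSS in kb along the direction of the gene (ATRA in red, control in dark blue, gene as a black bar, DR5 repeats as blue ticks). The H3K4me3 peak at the TSS extends further into the gene in both ATRA libraries, and H3K27ac covers a large domain inside the gene that neither control library has.

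Letters of retinoic acid receptor sites were searched in these windows. The half-site was AGGTCA, with G also accepted in place of the leading A, and T in place of the G that precedes TCA. A DR5 was any pair of such half-sites in the same direction with 5 bases between them, on either strand of GRCh37. Such a DR5 lies within 5 kb of the canonical TSS of 451 genes (2.24% of all), and CYP26A1 is the only one of the 9 genes among them. The share of all genes with a DR5 in the gene plus 20 kb was not computed, so repeats farther out have no background. DHRS3 holds 2 DR5, both inside the gene and on its own strand. They are shown with the half-sites in capitals because 1 of them lies in the H3K27ac domain of both ATRA libraries.
DHRS3 intron, chr1:12664608-12664624, minus strand: GGGTCAtggagAGGTCA
DHRS3 farther into the gene, chr1:12655995-12656011, minus strand: GGTTCAgccacAGGTCA

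The first is centered 13600 bp after the TSS, in an intron, under H3K27ac peaks of both ATRA libraries and 22037 bp from the nearest control peak. The second is centered 22213 bp after the TSS, in an exon of another annotated transcript, under the H3K27ac peak of ATRA replicate 1 only. Neither lies under H3K4me3. The first is printed with 60 bases on each side (chr1:12664548-12664684, 5′ to 3′ along the gene, half-sites in capitals).
DHRS3 intron with context: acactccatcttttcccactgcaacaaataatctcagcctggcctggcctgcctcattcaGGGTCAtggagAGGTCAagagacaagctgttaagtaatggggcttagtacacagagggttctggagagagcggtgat

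A match in letters is not a bound site, and receptor binding was not measured in these libraries. This stretch holds 1 CG dinucleotide in 137 bases.

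TGM2 carried H3K27ac with ATRA only, and no H3K4me3 in any of 4 libraries. H3K27ac covered 21186 and 12990 bp in the ATRA libraries and was listed at 0 in both control libraries. The groups do not overlap, and the difference of the means was 17088 bp (exact permutation p = 0.333), or 26.8% and 16.4% of the window with ATRA. The nearest H3K4me3 peak lay 118.4 to 120.5 kb from the TSS in every library. Within 50 kb of the gene, H3K27ac covered 46731 and 37542 bp with ATRA and 1952 and 3366 bp in the control, so more H3K27ac lay beyond the 20 kb flanks.

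The peaks of the ATRA libraries coincided upstream of TGM2 and not inside it. The gene lies on the minus strand of chromosome 20 at 36755787 to 36794980. The bases under peaks in both libraries formed 3 stretches of 9672 bp in all. The first, 4367 bp long, lay 567 to 4933 bp upstream of the 5′ end, and the second, 4856 bp long, 13757 to 18612 bp upstream. The last, 449 bp long, lay past the 3′ end. Within the gene body, H3K27ac covered 10725 bp in ATRA replicate 1 and 686 bp in replicate 2, with 0 bases shared. With only peaks of a deposited −log10 q of at least 5, TGM2 was no longer called higher, but the scale of that column could not be checked. The peaks behind the first and second stretch had low values in that column, 0.934 and 0.815 in replicate 1 and 0.997 and 0.911 in replicate 2. The TSS peak counted above refers to the 5′ end of the gene, and within 1 kb of the canonical TSS at 36793672 H3K27ac was found in ATRA replicate 1 only. No DR5 lay in the TGM2 window. A DR2 (the same half-sites with 2 bases between them) lay under the second upstream stretch at chr20:36808998-36809011, minus strand, and DR2 letters are common, with a match within 5 kb of the TSS of 36.9% of genes.

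**Figure D3:**
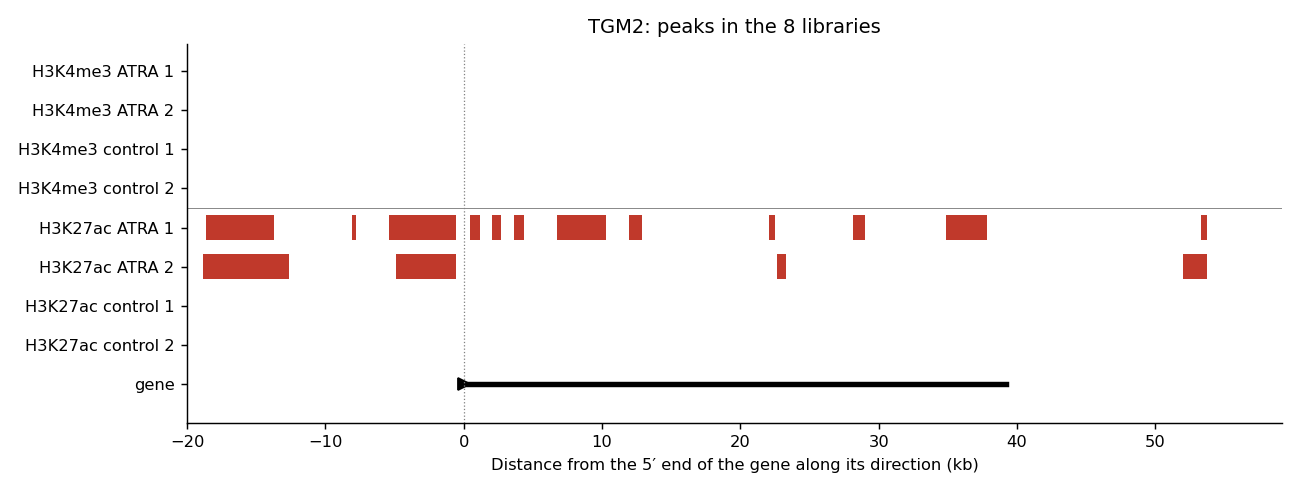
Peaks at TGM2 in the 8 libraries by distance from the 5′ end in kb along the direction of the gene (ATRA in red, control in dark blue, gene as a black bar). Only the ATRA libraries of H3K27ac have peaks, which coincide upstream of the gene and differ within it.

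RDH10, which oxidizes retinol to retinaldehyde, had both marks within 1 kb of its TSS in all 4 libraries. In replicate 1 of each group the H3K27ac peak ended 241 bp (ATRA) or 231 bp (control) before the TSS and covered no base of the gene. H3K4me3 covered 8126 and 9411 bp of its window with ATRA and 7645 and 8392 bp in the control, and the ranges overlap (log2 ratio 0.12, exact permutation p = 0.667). Within 5 kb of the TSS alone, the ATRA libraries lay just above the control, at 7941 and 8592 bp against 7645 and 7697 bp. H3K27ac covered 1720 and 2449 bp with ATRA and 1610 and 2945 bp in the control (log2 ratio −0.09, exact permutation p = 1). The gene lies on chromosome 8 at 74206837 to 74237516, and the same H3K4me3 peak also covers the TSS of RPL7, a ribosomal protein gene, so the peak cannot be assigned to RDH10 alone.

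RDH11, a retinaldehyde reductase, had H3K4me3 at its TSS with and without ATRA. The TSS peak was 2667 and 2857 bp long with ATRA and 3671 and 1682 bp in the control, so the control libraries lie on both sides of the ATRA libraries. Over the whole window, which also holds a peak at the TSS of the neighbor VTI1B, H3K4me3 covered 7493 and 5068 bp with ATRA and 6673 and 4500 bp in the control (log2 ratio 0.14). H3K27ac was found with ATRA only, as 1 short peak of 571 or 404 bp just inside the gene, and 273 bp of it was shared. The call and the TSS peak were lost with peaks of at least 1 kb only and with equal numbers of peaks per library, the longest being kept. It was listed at 0 in both control libraries, and the difference of 487.5 bp is below the median of 606 bp over all genes. The gene lies on chromosome 14 at 68143517 to 68162510, minus strand.

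ALDH1A2, which makes retinoic acid, was called higher for H3K27ac, but the peaks lie far from its main promoter. H3K27ac covered 53968 and 62426 bp of its window with ATRA and 7413 and 12170 bp in the control (log2 ratio 2.46, exact permutation p = 0.333). The annotated gene spans 544444 bp on chromosome 15, from 58245622 to 58790065 on the minus strand, and includes the TSS of AQP9, a water and glycerol channel, and of LIPC, the hepatic lipase. The longest H3K27ac stretch in both ATRA libraries, 12781 bp at 58429527 to 58442307, lies over the TSS of AQP9. Another, of 5041 bp at 58622164 to 58627204, holds the H3K4me3 peak found in all 4 libraries, whose shared part was 1679 bp with ATRA and 536 bp in the control. Over the canonical transcript, which starts at 58357909, plus the same flanks, H3K27ac covered 297 and 1131 bp with ATRA and 0 bp in both control libraries, and H3K4me3 covered 0 bp in all 4. No library had a peak of either mark within 1 kb of the canonical TSS or of the 5′ end of the gene. Counted at any annotated TSS of the gene, ALDH1A2 had a peak of each mark within 1 kb in all 4 libraries. Start sites other than these 2 were thus marked with and without ATRA.

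**Figure D4:**
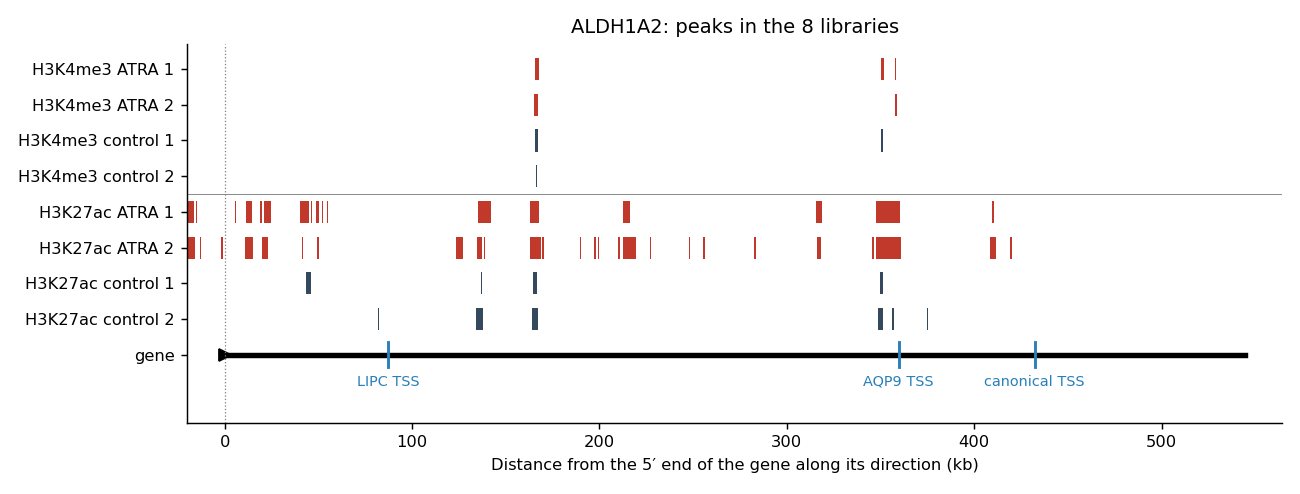
Peaks over the annotated span of ALDH1A2 in the 8 libraries by distance from its 5′ end in kb (ATRA in red, control in dark blue, gene as a black bar, other start sites as blue ticks). The longest H3K27ac peaks of the ATRA libraries lie over the AQP9 TSS, which is 359.7 kb from the 5′ end, and others lie nearer the 5′ end, with none at the canonical TSS of ALDH1A2.

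CRABP2, the cellular retinoic acid binding protein that delivers ATRA to the receptors, had no H3K4me3 at its promoter. Its window held 2898 and 3102 bp of H3K4me3 with ATRA and 2630 and 2343 bp in the control, which is the call higher noted above (log2 ratio 0.20, exact permutation p = 0.333). All but 1 of these peaks reach into the window from a promoter peak of the neighbors ISG20L2 and METTL25B. The exception is a peak of 399 bp in ATRA replicate 2, 15993 to 16391 bp upstream. With the flanks set to 0 or 5 kb, no H3K4me3 remained at CRABP2. H3K27ac was found in ATRA replicate 1 only, as peaks of 1008 and 200 bp, and was listed at 0 in the other 3 libraries. The gene lies on chromosome 1 at 156669398 to 156675608, minus strand.

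The retinoic acid-degrading enzymes CYP26A1 and CYP26B1 and the retinol transporter STRA6 had no peak in their windows. The nearest H3K4me3 peak lay 221.3 to 222.3 kb from the 5′ end of CYP26A1 and 160.7 to 161.6 kb from that of STRA6. The nearest H3K27ac peak lay 641.9 to 691.1 kb from CYP26B1 and 101.6 to 115.0 kb from STRA6. Outside the windows the nearest peak was much closer with ATRA at CYP26B1 (H3K4me3) and CYP26A1 (H3K27ac), a reading not planned in advance. How often this occurs over all genes was not computed. The nearest H3K4me3 peak lay 93.6 and 93.2 kb upstream of CYP26B1 in the ATRA libraries, as peaks of 329 and 1312 bp. In the control libraries it lay 602.2 kb downstream in replicate 1 and 676.5 kb upstream in replicate 2, so these distances run to different places. At CYP26A1, the nearest H3K27ac peak lay 28.7 and 27.7 kb upstream in the ATRA libraries, at 94803463 to 94804522 and 94802235 to 94805507 of chromosome 10, against 223.8 and 223.4 kb in the control libraries. These CYP26A1 peaks, singled out after their values were seen, lie in the window of the adjacent CYP26C1, another retinoic acid hydroxylase, which held 1060 and 3645 bp of H3K27ac with ATRA and was listed at 0 in both control libraries.

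CYP26A1 holds 4 DR5 sequences in its window (chromosome 10, 94813232 to 94857642), more than any other of the 9 genes. They are shown for comparison with the intronic DR5 of DHRS3. None lies under a peak in any of the 8 libraries, which follows from the window holding no peak of either mark. Half-sites are in capitals.
CYP26A1 proximal, chr10:94833560-94833576, minus strand: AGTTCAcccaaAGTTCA
CYP26A1 upstream, chr10:94831674-94831690, plus strand: GGGTCAcaggcGGGTCA
CYP26A1 farther upstream, chr10:94830279-94830295, minus strand: GGTTCActaagGGGTCA
CYP26A1 downstream, chr10:94843350-94843366, minus strand: AGGTCAagagtAGGTCA

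The proximal repeat is centered 82 bp upstream of the canonical TSS, and inside an exon of a longer annotated transcript. The others are centered 1968 and 3363 bp upstream and 9708 bp downstream of that TSS. The nearest ATRA H3K27ac peak to any of the 4 was 24772 to 31751 bp away. The window of ALDH1A2 held 2 more DR5, at chr15:58697920-58697936 and chr15:58718203-58718219, neither under a peak, and no DR5 was found in the other 6 windows.

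H3K4me3 was also set beside the base composition of these promoters. A promoter was counted as CpG-rich where the 1001 bases around the canonical TSS had at least 50% G and C and an observed to expected CpG ratio of at least 0.6. By this measure 6 of the 9 genes are CpG-rich (CYP26A1, CYP26B1, DHRS3, RDH10, ALDH1A2 and CRABP2), and 4 of these 6 had no H3K4me3 at the canonical TSS in any library. Over all genes, 24.9% of 12950 CpG-rich promoters had none. RDH11 is not CpG-rich, with a ratio of 0.476, and had H3K4me3 in all 4 libraries, as 17.0% of 7148 such promoters did. TGM2 and STRA6 are not CpG-rich and had none, as 78.5% of that class did. The 150 bases before the TSS of DHRS3 (chr1:12678217-12678366) and CYP26B1 (chr2:72374992-72375141) are shown, each 5′ to 3′ along the gene with CG dinucleotides in capitals, as a CpG-rich promoter with H3K4me3 in all 4 libraries and 1 with none.
DHRS3: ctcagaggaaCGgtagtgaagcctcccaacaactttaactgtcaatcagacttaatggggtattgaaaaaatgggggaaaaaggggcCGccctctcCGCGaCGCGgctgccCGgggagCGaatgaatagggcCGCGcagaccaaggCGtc
CYP26B1: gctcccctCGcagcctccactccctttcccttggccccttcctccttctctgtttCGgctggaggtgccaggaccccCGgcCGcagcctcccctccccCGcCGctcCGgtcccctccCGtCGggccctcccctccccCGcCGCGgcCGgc

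The first holds 11 CG dinucleotides and the second 13. Over the full 1001 bases the ratio was 0.912 at DHRS3 and 0.706 at CYP26B1.

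Other genes of the pathway were counted in the same way. Of 38 other retinoid metabolism genes, 11 were called higher and 0 lower for H3K4me3, and 10 and 0 for H3K27ac. The 10 include RDH12, whose TSS lies in the RDH11 window and whose H3K27ac log2 ratio, 0.573, is that of RDH11, so these calls are not separate. These shares, 28.9% and 26.3%, are near or below the backgrounds of 30.1% and 33.7%, and 30 of the 38 had no H3K4me3 at the TSS in any library. The largest log2 ratio was at DHRS9, a retinol dehydrogenase, with 7851 and 6472 bp of H3K4me3 with ATRA and 403 and 0 bp in the control, none of it within 1 kb of the TSS. RBP5, a cellular retinol binding protein, had 7958 and 6316 bp against 4137 and 3244 bp of H3K4me3 and also no TSS peak. RBP4, the plasma carrier of retinol, had 8028 and 14300 bp of H3K27ac with ATRA against 0 and 2513 bp, a larger difference in bp.

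Among 14 retinoic acid receptors and coregulators, 6 were called higher and 1 lower for H3K4me3, and 6 and 0 for H3K27ac. For each mark 42.9% were called higher, against 30.1% and 33.7% of all genes, and 2.46% and 2.97% of all genes were called lower. The coactivator NCOA3 had 9875 and 8960 bp of H3K4me3 with ATRA against 4539 and 3552 bp, and 22663 and 36084 bp of H3K27ac against 0 and 1704 bp. RARG, a retinoic acid receptor, had 22473 and 16607 bp of H3K4me3 against 15427 and 10053 bp. RXRA, the partner receptor, was the only one called lower for H3K4me3, at 3516 and 3230 bp with ATRA and 6587 and 4476 bp in the control. No library had an H3K4me3 peak within 1 kb of the RXRA TSS.

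Of 20 other genes known to respond to ATRA, 13 were called higher and 0 lower for H3K4me3 (65% against the background of 30.1%), and 12 and 1 for H3K27ac (60% against 33.7%). This list was chosen as ATRA-responsive, with earlier results of these data known, so its direction is not independent evidence. RARB, called higher for H3K27ac, is counted both here and among the receptors. The ectoenzyme CD38 had 4904 and 20500 bp of H3K4me3 with ATRA against 1409 and 1022 bp, and the integrin ITGAM 5393 and 3013 bp against 1004 and 534 bp. For H3K27ac, the repressor HIC1 had 26440 and 25075 bp against 0 and 350 bp, and ASB2, part of a ubiquitin ligase, 50427 and 39005 bp against 4759 and 6890 bp. LOXL4, a lysyl oxidase, was called lower, at 2788 and 200 bp against 3842 and 3547 bp.

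**Figure D5:**
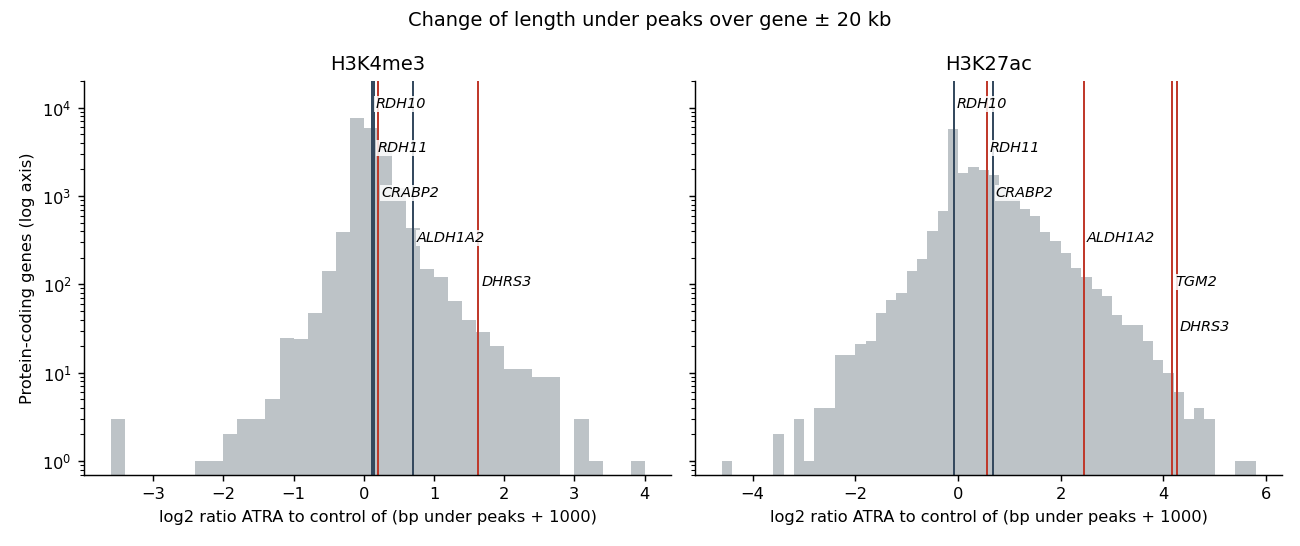
Distribution over 20098 protein-coding genes of the log2 ratio of ATRA to control, computed on the length under peaks plus 1000 bp, for H3K4me3 (left) and H3K27ac (right), with the number of genes on a log axis. Vertical lines mark the genes with a peak in any library (red where called higher, dark blue otherwise), and DHRS3 lies at rank 17 for H3K27ac. Places of genes at or near 0 in the control (DHRS3, TGM2, RDH11 and CRABP2 for H3K27ac) depend on the added 1000 bp, and the ratio of DHRS3 was 6.29 with a smaller and 2.36 with a larger addition.

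The genes whose 8-library profile within 5 kb of the TSS was most like that of a member were found by Euclidean distance on log2 lengths with 1000 bp added. For DHRS3 they were SNN (distance 0.665) and PTGS1, which makes prostaglandin precursors (0.793). PTGS1 had 6303 and 5730 bp of H3K4me3 with ATRA against 3629 and 3050 bp, and 4132 and 5145 bp of H3K27ac against 0 and 200 bp. DHRS3 itself had 6563 and 5666 bp against 2492 and 1770 bp, and 4376 and 4011 bp against 0 in both. For RDH10 they were RNF113A (0.257) and NDUFA1 (0.259), neighbors on chromosome X, with 1572 and 2018 bp of H3K27ac in the control. For RDH11 they were ARL10 (0.583) and FAM98C (0.601).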

How the data were processed

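ChIP-seq peaks of H3K4me3 and H3K27ac were used from 8 libraries of HL-60 cells. The authors removed adapters, used Bowtie for alignment to hg19 and MACS2 for broad peaks of each library (the submitters' processing notes also name cutadapt). They deposited peak positions with 3 measures, of which the fold and −log10 p columns hold impossible values and were not used. The −log10 q deposited by the authors, whose scale could not be checked, served only as a filter (at least 5) in an alternative. Genes came from GENCODE release 44 mapped to GRCh37, and all peaks lay within its chromosomes. Length under peaks was summed with Python 3.11.15 and pandas 2.3.3 and checked against bedtools 2.31.1 and on simulated peaks. Log2 ratios used condition means plus 1000 bp. All 9 members are named, and of each other list and mark the 2 largest called changes per direction, except that some items are not reported here. The members and lists were chosen with earlier results of these data known. Alternatives concerned flanks, peak filters, TSS definition, scaling, pseudocount and left-out libraries. Depth is unknown, so precision rests on 2 libraries per group. Sequences were read from GRCh37.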

Additional observations from a re-analysis of the deposited data

How the results depend on the processing

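With 2 libraries per group no test could reach 0.05, depth is unknown, and all values rest on where peaks were called. DHRS3 was called higher for both marks under every alternative tried for the calls. With a −log10 q of at least 5, which kept 12.8% to 16.9% of the H3K27ac peaks of a library, 1 member was called higher for H3K27ac (DHRS3), 1 had H3K4me3 at the TSS in all 4 libraries (RDH10), and 0 had H3K27ac at the TSS in all 4 or in both ATRA libraries and no control library. The number called higher for H3K4me3 was 1 (DHRS3) with 50 kb flanks, with the number of peaks, or with lengths scaled to each library's total. The scaling also called 1 member lower for H3K27ac (RDH10). With 50 kb flanks, 6 members were called higher for H3K27ac, CYP26A1 and CRABP2 being added. The share of all genes was not computed with those flanks. At the TSS base itself, 0 members had H3K27ac in all 4 libraries and 0 in both ATRA libraries and no control library, and with any annotated TSS 2 had it in all 4 (RDH10 and ALDH1A2). For H3K4me3, any annotated TSS gave 4 members with a peak in all 4 libraries (DHRS3, RDH10, RDH11 and ALDH1A2). Leaving out each library in turn gave 3 to 4 members higher for H3K4me3, with 4 without ATRA replicate 2 or without control replicate 1, and 0 to 1 lower for H3K27ac, with 1 (RDH10) without control replicate 1. Comparison within replicate numbers (replicate block) called 5 members higher for H3K4me3 (DHRS3, RDH10, RDH11, ALDH1A2 and CRABP2), and changed no other count beyond 1.5 times. With 1 library left out, a call of 2 libraries against 1 is easier to meet than 2 against 2. The comparison within replicate numbers is also looser. Shares of all genes were not computed under these rules, so the higher counts are not a result about the members. Same-numbered libraries deviated together (Pearson r of 0.248 for H3K4me3 and 0.532 for H3K27ac across 20098 genes, which are not independent), and share a date-like tag in their deposited peak names, but the labels do not say that a number marks a shared culture or day. The log2 ratio of DHRS3 was positive in 19 of 19 alternatives for each mark (0.58 to 2.35 for H3K4me3, 2.36 to 6.29 for H3K27ac). The canonical transcript, an alternative chosen after seeing the data, left the counts within 1.5 times. The cause of these shifts was not tested.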
